A study of Homo sapiens with 3 samples.

Results

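SYNC and RBBP4 are protein-coding genes of human chromosome 1 that lie on opposite strands and run into each other at their 3′ ends, and RBBP7 on the X chromosome is the paralog of RBBP4. These 3 members of the 26485 gene names in the deposited tables were picked by name, SYNC because earlier results of the same tables had placed it among the gene names with the most counts, RBBP4 because its exons share bases with those of SYNC, and RBBP7 because it is the close relative of RBBP4. Their levels and the lopsided split of counts between SYNC and RBBP4 are therefore given as descriptions without a test. The study sequenced RNA from 3 samples of HEK293, an established line from human embryonic kidney transformed with adenovirus DNA and grown in DMEM with 10% fetal calf serum. It had 1 condition, no treatment and no engineered allele, so the 3 libraries form 1 group and no contrast between conditions exists. Nothing in the labels says that the replicates were separate cultures, and the spread between them may be technical.

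RBBP4 and RBBP7 encode histone-binding proteins built from WD repeats that fold into a propeller. Between them they hold histones for several chromatin machines, not each of them for every one. These are the methyltransferase complex PRC2, the deacetylase complexes NuRD and SIN3 and the chromatin assembly factor CAF-1. The others are the acetyltransferase HAT1, the remodeller NURF and the cell cycle repressor complex MuvB. SYNC encodes syncoilin, an unusual intermediate filament protein best known from skeletal muscle, where it binds desmin and the dystrobrevin of the dystrophin complex.

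The shared stretch, on the GRCh38 build and in the annotation of GENCODE release 29, was 1706 bases of exon in 3 pieces: chr1:32680360-32681860, chr1:32684010-32684089 and chr1:32684258-32684382. SYNC occupies chr1:32680360-32703596 on the minus strand and RBBP4 chr1:32651142-32686211 on the plus strand. Between the longest coding transcripts of both genes, all 1706 shared bases were complementary. For RBBP4 every one of them lay in the 3′ UTR, which is 6506 bases long in that transcript, whereas for SYNC 216 lay in the coding sequence and 1490 in the 3′ UTR. The shared bases made up 48.9% of the 3487 merged exon bases of SYNC, against 18.0% of the 9470 merged exon bases of RBBP4. The following 30 bases, chr1:32684353-32684382 from the GENCODE transcripts, are shown because this is the kind of position where strand alone decides which gene a read belongs to. The first line reads as SYNC coding sequence and the second as RBBP4 3′ UTR, each 5′ to 3′, and the capitals mark the same 12 base pairs on both strands.
SYNC, minus strand: gaacagctgGAGGAAATGGAAgaacgccag
RBBP4, plus strand: ctggcgttcTTCCATTTCCTCcagctgttc

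RBBP7, at chrX:16839283-16870414 on the minus strand, has an opposite-strand neighbour of its own. The last exon of TXLNG, the gene of the syntaxin-binding protein gamma-taxilin at chrX:16786427-16844519, shares 179 bases (chrX:16844341-16844519) with RBBP7 exons, again where the 3′ ends meet. That is 2.42% of the 7392 merged exon bases of RBBP7 and 4.01% of the 4460 of TXLNG.

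**Figure D1:**
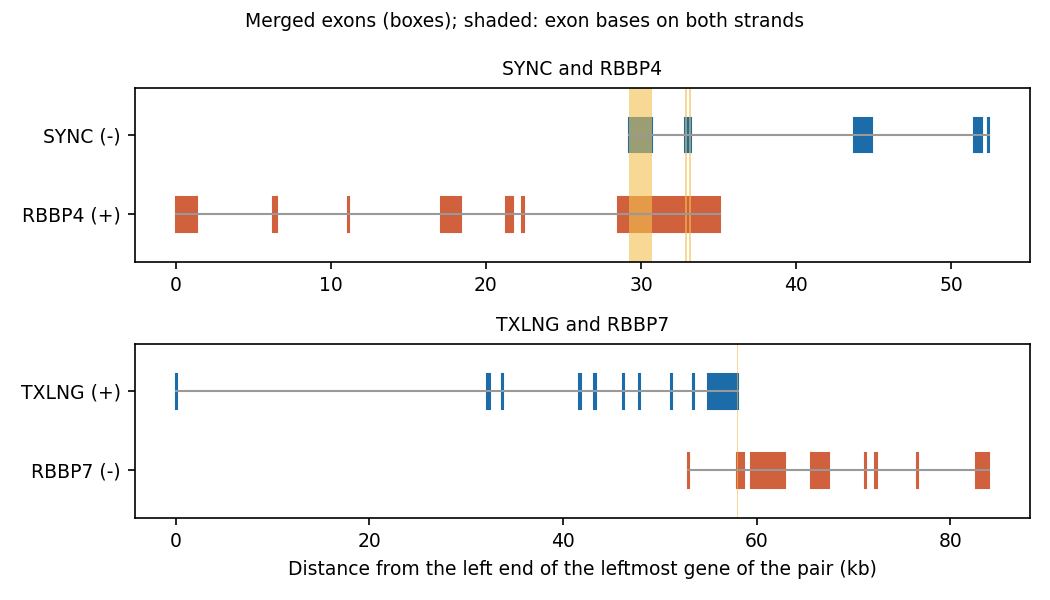
Merged exons (boxes) of SYNC and RBBP4 (upper panel) and of TXLNG and RBBP7 (lower panel), with each gene's strand in brackets and the distance from the left end of the leftmost gene of the pair on the x axis in kb. Shading marks exon bases annotated on both strands, 1706 bases in the upper pair and 179 bases in the lower pair.

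Libraries held 289241 to 483114 counts assigned to gene names, and 91.2% ± 0.472 (SD, n = 3) of all records fell in no annotated feature. One count equalled 2.29, 2.31 and 3.30 CPM (counts per 1000000 of the TMM effective library size) in replicates 1, 2 and 3. By counting error alone, a count of 0 thus allows up to 6.86, 6.92 and 9.89 CPM there, the value of 3 counts. The library kit keeps the strand of the RNA, but no source used here names the strand setting used in counting. Counts of genes that share exons on opposite strands are therefore uncertain as measures of either partner. Levels of genes without such a partner depend on that setting too. Among all opposite-strand pairs the one with the most counts was TSIX and XIST, with means of 216168 and 290 CPM. This pair was named after its values were seen, and the strand setting was not tested. In whole-culture RNA, fewer cells carrying a transcript and less of it per cell cannot be told apart. The sample titles speak of mRNA, while the protocol describes depletion of ribosomal RNA from total RNA.

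SYNC received 1993, 2704 and 1797 counts in replicates 1, 2 and 3, or 4556, 6233 and 5923 CPM. It ranked 9th, 6th and 7th among all gene names in these libraries. Its mean was 5571 ± 892 CPM (SD, n = 3), and per kilobase of merged exon 1598 ± 256 CPM (SD, n = 3), which was 17th of 24620 names with an annotated length. The SYNC share of gene-assigned counts was 0.484% in replicate 1, 0.560% in replicate 2 and 0.621% in replicate 3. Exact binomial 95% intervals of these shares ran from 0.463% to 0.505%, from 0.539% to 0.581% and from 0.593% to 0.651%, and cover counting error only. They did not overlap between any pair of libraries.

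SYNC differed between libraries by more than counting noise. Of the 3 members, SYNC and RBBP4 reached 10 counts in each library and could be tested, and 1 of these 2 passed, SYNC; across all 2564 genes tested the same edgeR fit called 1175, or 45.8%. That background falls to 263 of 2784 genes without replicate 2. For SYNC the adjusted p was 4.85e-26, with a coefficient of variation beyond counting noise of 15.9%. Replicate 1 was low: replicate 2 stood above it by a log2 ratio of 0.45 and replicate 3 by 0.38, whereas replicates 2 and 3 differed by a log2 ratio of -0.07 (replicate 3 over 2). Without replicate 1 the call was lost, at an adjusted p of 0.237 in the same edgeR fit. Replicate 1 was also lowest when scaled by total counts or by DESeq2 size factors, but under total counts replicate 3 was highest, at 6213 CPM against 5597 CPM in replicate 2.

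RBBP4 received 63, 68 and 34 counts in replicates 1, 2 and 3, or 144, 157 and 112 CPM. Its mean of 138 ± 23.0 CPM (SD, n = 3) was 1056th among all names. Per kilobase of merged exon RBBP4 had 14.5 ± 2.43 CPM (SD, n = 3), the 1965th of 24620 names. The libraries did not differ beyond counting noise at this depth (edgeR, adjusted p = 0.353). The 95% Poisson intervals, 111 to 184 CPM, 122 to 199 CPM and 77.6 to 157 CPM in the same order, overlapped one another.

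RBBP7 received 6, 7 and 1 counts in replicates 1, 2 and 3, or 13.7, 16.1 and 3.30 CPM, with a mean of 11.0 ± 6.82 CPM (SD, n = 3). Replicate 3 lay below the other two, but its exact Poisson interval of 0.0834 to 18.4 CPM took in their values. The gene was too low for the count filter, and in a fit without the filter its adjusted p was 0.321 (edgeR). Per kilobase of merged exon RBBP7 had 1.49 ± 0.923 CPM (SD, n = 3).

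TXLNG, across from RBBP7, received 107, 149 and 82 counts, or 245, 343 and 270 CPM in replicates 1, 2 and 3. It averaged 286 ± 51.3 CPM, and 64.1 ± 11.5 CPM per kilobase of merged exon (SD, n = 3 each). Replicate 2 was highest, and the libraries differed beyond counting noise by a narrow margin (edgeR, adjusted p = 0.0465). That call was lost under total counts (adjusted p = 0.481), without the count filter (0.0789), without replicate 1 (0.190) and without replicate 2 (0.734).

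**Figure D2:**
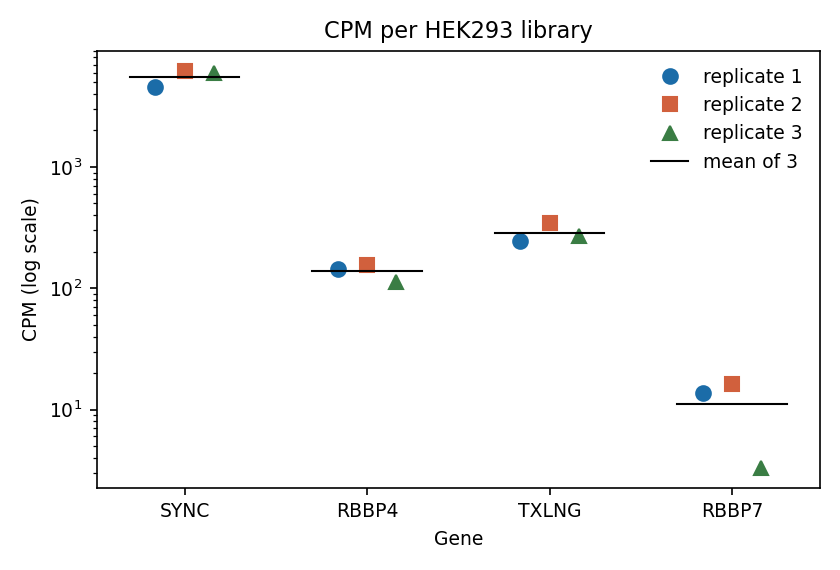
CPM on a log axis for SYNC, RBBP4, TXLNG and RBBP7 in each of the 3 HEK293 libraries (symbols), with the mean of 3 as a line. SYNC lies between 4556 and 6233 CPM and RBBP4 between 112 and 157 CPM, while TXLNG lies between 245 and 343 CPM and RBBP7 between 3.30 and 16.1 CPM.

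SYNC took nearly all counts of its pair. Counts under SYNC were 31.6, 39.8 and 52.9 times those under RBBP4 in replicates 1, 2 and 3. SYNC therefore held 96.9%, 97.5% and 98.1% of the pair's counts, with exact binomial 95% intervals of 96.1% to 97.6%, 96.9% to 98.1% and 97.4% to 98.7%. The interval of each library overlapped that of replicate 2, and those of replicates 1 and 3 overlapped too. The log2 ratio of SYNC over RBBP4 was 5.34 ± 0.37 (SD, n = 3). Per kilobase of merged exon it was 6.78 ± 0.37 (SD, n = 3), since RBBP4 has the longer exons. With all counts of each gene divided by the length of its unshared exon alone, it was 7.46. With 3 libraries an exact two-sided sign-flip permutation test cannot give a p below 0.25.

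The gene tables do not say where along SYNC the counts fell. If all of them lay in the 1706 shared bases, SYNC would have 3265 CPM per kilobase there; if all lay in the 1781 bases of SYNC that RBBP4 does not share, it would have 3128 CPM per kilobase. For RBBP4 the corresponding values were 80.7 CPM per kilobase of shared exon and 17.7 CPM per kilobase of the 7764 bases it does not share. On either reading SYNC exceeded RBBP4 per kilobase.

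The X-linked pair had the same lopsided shape at a lower level. Counts under TXLNG were 17.8, 21.3 and 82.0 times those under RBBP7 in replicates 1, 2 and 3, the last of these resting on 1 RBBP7 count. TXLNG held 94.7%, 95.5% and 98.8% of the pair's counts, with exact binomial 95% intervals of 88.8% to 98.0%, 91.0% to 98.2% and 93.5% to 99.97%. The log2 ratio of TXLNG over RBBP7 was 4.88 ± 1.11, and 5.61 ± 1.11 per kilobase of merged exon (SD, n = 3 each).

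Such a split was common among opposite-strand neighbours. Of 1429 pairs of gene names that share exon bases on opposite strands and had at least 10 counts together in every library, 608, or 42.5%, had 1 partner at 10-fold or more the counts of the other in every library. Both pairs described here were among them. The SYNC and RBBP4 pair was chosen with its counts known, so nothing is read from its place in this set. The median log2 ratio of the higher over the lower partner was 3.50 over all 1429 pairs and 3.06 over the 575 convergent pairs of protein-coding genes, the layout that both pairs have. In the share held by the higher partner, SYNC and RBBP4 exceeded 70.6% of all pairs and 78.6% of those convergent ones. Its summed 5708 CPM was 6th of 1429 and 3rd of the 575, where the medians were 168 CPM and 189 CPM. The TXLNG and RBBP7 pair, at 297 CPM, was 476th.

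**Figure D3:**
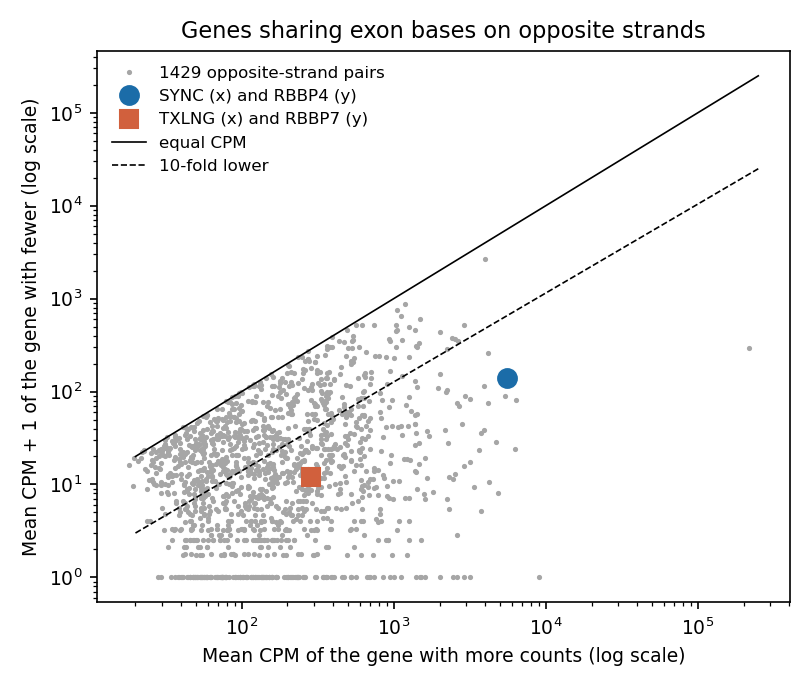
Mean CPM of the partner with more counts (x axis, log scale) against mean CPM + 1 of the partner with fewer (y axis, log scale) for the 1429 opposite-strand pairs, with SYNC and RBBP4 as a circle and TXLNG and RBBP7 as a square. Both lie below the dashed line of a 10-fold lower partner, as do many of the grey points.

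RBBP4 stood above RBBP7 in every library, with 10.5, 9.71 and 34.0 times the counts in replicates 1, 2 and 3. Per kilobase of merged exon the log2 ratio of RBBP4 over RBBP7 was 3.47 ± 0.92 (SD, n = 3). Merged exons of both genes include introns retained in some annotated transcripts. Per kilobase of the longest coding transcript of each gene the log2 ratio was 2.06. The genes across from them stood in the same order: SYNC had 18.6, 18.1 and 21.9 times the counts of TXLNG, a log2 ratio of 4.64 ± 0.15 per kilobase of merged exon (SD, n = 3). The order of these paralogs does not show which protein the cells make more of. RNA counts do not measure protein, and the strand setting used in counting is unknown.

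RBBP4 and RBBP7 shared no long identical stretch. Aligned coding sequences of RBBP4 and RBBP7, each 1278 bases long, were identical at 969 of 1275 aligned positions, or 76.0%, and the longest identical run was 26 bases. The pair of stretches below, from the GENCODE transcripts, is where they were most alike, 79 of 90 bases, and is shown because even here differences are spread through the window. Positions count from 1 at the first base of the start codon, and capitals mark bases that differ. RBBP4 (positions 991 to 1080) is spliced from plus-strand exons within chr1:32672474-32672678 and RBBP7 (positions 988 to 1077) from minus-strand exons within chrX:16849265-16852098.
RBBP4, most alike: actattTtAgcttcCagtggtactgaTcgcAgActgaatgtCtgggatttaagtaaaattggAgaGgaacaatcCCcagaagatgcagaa
RBBP7, most alike: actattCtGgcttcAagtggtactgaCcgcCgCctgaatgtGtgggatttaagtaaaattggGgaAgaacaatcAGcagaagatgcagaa

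The least alike 90 bases had 61 in common. They are shown for contrast, RBBP4 at chr1:32657434-32657523 (positions 172 to 261, plus strand) and RBBP7 at chrX:16863004-16863093 (positions 169 to 258, minus strand).
RBBP4, least alike: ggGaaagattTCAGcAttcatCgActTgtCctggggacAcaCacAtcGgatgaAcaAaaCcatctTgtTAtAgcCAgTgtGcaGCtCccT
RBBP7, least alike: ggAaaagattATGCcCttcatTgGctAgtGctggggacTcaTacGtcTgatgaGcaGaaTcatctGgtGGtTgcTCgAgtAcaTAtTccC

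Processed pseudogenes shared more with RBBP4 than its paralog did. Of 8768 distinct runs of 50 bases in coding transcripts of RBBP4, 452, or 5.16%, also occurred on the same strand in transcripts of 13 other genes, led by the pseudogenes RBBP4P1 with 282 runs and RBBP4P2 with 198. None occurred in RBBP7. For runs of 100 bases the share was 1.42%. SYNC (3531 runs of 50 bases) and RBBP7 (3396 runs) had 0 in other genes on the same strand. On the opposite strand 1564 SYNC runs, or 44.3%, occurred in RBBP4, and 130 RBBP7 runs, or 3.83%, in TXLNG. The length of the reads is unknown, and sequence outside annotated transcripts was not searched.

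Neighbours of the chromosome 1 pair did not share the level of SYNC, which was picked for its high counts. Per kilobase of merged exon, YARS, a tRNA synthetase gene, had 20.6 CPM, ZBTB8A, a zinc finger gene, 18.3 CPM and KIAA1522 16.8 CPM, against 1598 CPM for SYNC and 14.5 CPM for RBBP4. Their counts in replicates 1, 2 and 3 were 73, 65 and 58 for YARS and 69, 59 and 29 for ZBTB8A. KIAA1522 had 45, 30 and 39. None of the 3 passed the edgeR test (lowest adjusted p = 0.0676, KIAA1522), against 45.8% of all genes tested. ZBTB8OS, a tRNA ligase cofactor gene that starts head to head with RBBP4, had 6, 6 and 3 counts. S100PBP had 13, 7 and 16 counts and ZBTB8B 1, 0 and 0. YARS shares exon bases with S100PBP on the other strand, and ZBTB8A with ZBTB8OS, so their counts carry the same strand uncertainty as those of SYNC. On the X chromosome SYAP1 had 6, 4 and 1 counts, REPS2 4, 0 and 1 and CTPS2, a CTP synthase gene, 3, 0 and 1, all of them below the 10 counts that TXLNG exceeded in each library.

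Genes of the complexes that RBBP4 and RBBP7 serve had low counts, though more than gene names in general. Of 57 such genes in the tables, 19.3% had no count, against 45.3% of all 26485 names. A count in every library was found for 22, or 38.6%, against 29.2% of all names, and 8 had 10 or more in each, which 9.68% of all names did. Their median was 4.59 CPM, against 1.10 CPM over all names, which is not scaled by length. The listed genes are protein-coding, whereas all names also hold non-coding genes such as antisense RNAs, here and for the markers below. Per kilobase of merged exon RBBP4 lay above 53 of the 57 and below 4, and RBBP7 lay above 38 and below 19. Among the 8 tested genes the edgeR fit called 2, ASF1A and HDAC1, against the 45.8% over all genes. Since the strand setting is unknown, a low or absent count of a partner gene, here and below, does not by itself show a low transcript level.

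PRC2, which methylates histones at silenced genes, had none of its 10 genes at 10 or more counts in each library. JARID2, which helps bring the complex to chromatin, had 5, 15 and 3 counts, LCOR 2, 11 and 0, and MTF2, an accessory subunit, 4, 6 and 0. The core subunit gene SUZ12, EZH1 of the catalytic pair and the accessory PHF1 had no count in any library. By counting error alone this allows at most the values of 3 counts given above. For NuRD, 2 of 13 genes reached 10 counts. HDAC1 had 60, 23 and 12 counts, or 76.6 ± 52.9 CPM (SD, n = 3), with replicate 1 high (edgeR, adjusted p = 1.22e-05), and HDAC2, its sister deacetylase, had 12, 12 and 13. The remodelling ATPase gene CHD4 had 3, 5 and 9 counts, and MTA1 and GATAD2B had none.

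SIN3 complex genes were led by the scaffold gene SIN3A with 28, 23 and 11 counts, the only 1 of 13 to reach 10 in every library (edgeR, adjusted p = 0.348). ING1, a reader of methylated histone, had 13, 7 and 6 counts and ARID4B 7, 13 and 2, and ING2 and SAP130 had none. Among 6 genes of CAF-1, HAT1 and other histone chaperones, ASF1A, which passes histones to CAF-1, stood out with 117, 239 and 125 counts, or 410 ± 142 CPM (SD, n = 3; edgeR, adjusted p = 5.04e-09), highest in replicate 2. NASP had 14, 7 and 14 counts and HAT1, the enzyme that RBBP7 assists, 0, 2 and 4. The CAF-1 subunit gene CHAF1B had none. NURF had BPTF, its largest subunit, with 2, 12 and 8 counts, HMGXB4 with 3, 7 and 0 and the ATPase gene SMARCA1 with none.

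Of 11 genes of MuvB and the related DREAM factors 4 were in reach of the test, the most among these complexes, and none of the 4 was called, against 45.8% of all genes tested. The repressor E2F5 had 63, 75 and 50 counts (161 ± 14.9 CPM), the DNA-binding MuvB subunit LIN54 65, 78 and 36 (149 ± 30.6 CPM) and the dimerisation partner TFDP2 36, 29 and 26 (78.3 ± 10.0 CPM; SD, n = 3 each). LIN37 and RB1, the retinoblastoma gene after which the RBBP genes are named, had no count.

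Opposite-strand exons were found for 7 of the 57 partner genes, and there the split went both ways. The opposite gene had more counts in every library in 3 of the 7 pairs, fewer in 2 and neither in the rest. AKTIP, with 118, 169 and 113 counts, lay across from RBL2, a retinoblastoma family gene with 32, 38 and 18. C8orf59, with 150, 164 and 122, lay across from E2F5, and UBXN6, with 25, 13 and 22, across from the CAF-1 gene CHAF1A with 1, 0 and 0. ASF1A exceeded MCM9, which had 9, 18 and 5 counts, and ING1 exceeded CARS2, which had 0, 1 and 4. These pairs were named after their values were seen.

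**Figure D4:**
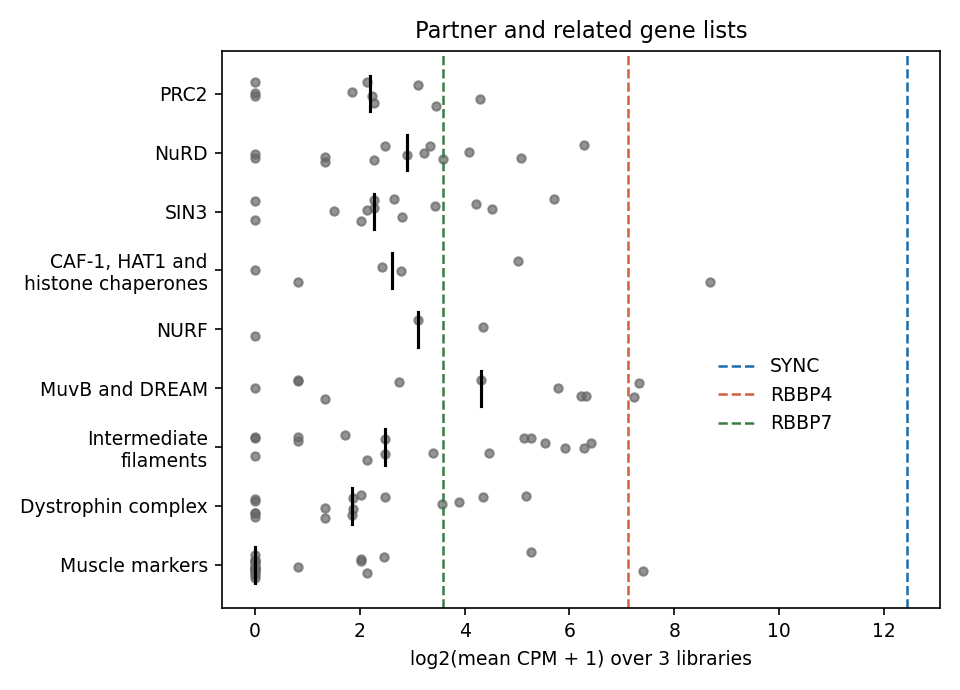
Log2(mean CPM + 1) over 3 libraries for each gene of the partner and related lists (points, spread vertically for sight), with the list median as a short black line and the members SYNC, RBBP4 and RBBP7 as dashed lines. Levels are not scaled by length. SYNC, picked for its high counts, lies to the right of every gene plotted. The list medians, from 0 to 18.8 CPM, lie to the left of RBBP4 at 138 CPM.

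Other intermediate filament genes had far lower levels than the one counted under SYNC, which was picked for its high counts. Of 17, 5 had 10 or more counts in each library, and 2 of these were called, LMNB1 and NEFL, against 45.8% of all genes tested. The nuclear lamin gene LMNB1 had 55, 21 and 24 counts, or 84.4 ± 38.9 CPM, and 23.2 CPM per kilobase of merged exon, where SYNC had 1598 and RBBP4 14.5 (edgeR, adjusted p = 0.00163). The keratin gene KRT8 had 76.3 ± 17.4 CPM and SYNM, encoding synemin, 59.2 ± 9.89 CPM (SD, n = 3 each). KRT8 shares 525 exon bases with a gene on the other strand, so its counts carry the same strand uncertainty as those of SYNC. DES, encoding the desmin that syncoilin binds in muscle, had no count, and neither did NES and BFSP2. VIM, encoding vimentin and named after its values were seen, had 26, 10 and 9 counts, while VIM-AS1 on the other strand had 1218, 563 and 745.

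Dystrophin complex genes were lower still, with a median of 2.63 CPM and 1 of 16 at 10 counts or more in every library. That was the syntrophin gene SNTB1, with 10, 17 and 13 counts, and its relative SNTB2 had 5, 6 and 5. DTNB, a dystrobrevin gene, and the sarcoglycan genes SGCA and SGCD had none.

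Of 21 skeletal muscle markers, 14 had no count in any library, among them ACTA1, DES, MB, MYOD1 and MYOG, against 45.3% of all names. Their summed level was 213, 267 and 181 CPM in replicates 1, 2 and 3, most of it from NEB, encoding nebulin, with 73, 89 and 40 counts, followed by CAV3 with 15, 17 and 12 and TNNI1 with 2, 1 and 2. NEB shares exon bases with RIF1 on the other strand, so its counts carry the same strand uncertainty as those of SYNC. Replicate 2, where this sum was highest, was also where SYNC was highest, though not under total counts. The lowest library differed: replicate 3 for this sum and replicate 1 for SYNC. The part of muscle transcripts in the SYNC level was not tested. Of 8 genes taken as markers of the HEK293 line, 6 had a count, but only 3 had one in every library. These were NEFL with 16, 12 and 22 counts, IGF2BP1 with 25, 4 and 5 and LIN28B with 10, 7 and 2. Only NEFL reached 10 counts in each library. The other counted markers rested on 1 count in 1 library each. PAX2 and SOX11 had none, as did 45.3% of all names. The median of the 8 markers was 1.10 CPM, the same as over all names. The summed level of the 8 was 117, 55.3 and 102 CPM, lowest in replicate 2.

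The genes whose profile over the 3 libraries was closest to that of SYNC were DCLRE1C, PYROXD1, GLIPR1, RNF219-AS1 and NECAB1. Likeness was the distance between log2 CPM deviations from each gene's own mean, among 57 genes with 500 or more counts in each library, where the median distance was 0.398. DCLRE1C, a DNA end-processing nuclease gene, lay at 0.00388, with 1842, 2515 and 2386 CPM in replicates 1, 2 and 3. PYROXD1 lay at 0.0284, with 1630, 2289 and 2129 CPM, and GLIPR1 at 0.101. RNF219-AS1 and NECAB1 followed at 0.155 and 0.161. All 5 shared exon bases with a gene on the other strand, as did 45 of the 57, or 78.9%, against 20.9% of all matched names. Across from DCLRE1C was SUV39H2, a histone methyltransferase gene, with 39, 64 and 21 counts, and across from PYROXD1 the helicase gene RECQL with 142, 225 and 144.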

How the data were processed

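The deposited files held raw counts per gene symbol, 1 table for each of 3 HEK293 libraries, with 5 summary lines that entered neither library sizes nor tests (no feature 91.2%, not unique 6.77%, ambiguous 0.0184% of records). Per the labels' protocols, ribosomal RNA was depleted and a strand-preserving kit was used. Per the submitters' processing notes, Trimmomatic, TopHat2 (given as 2.2.5) and HTSeq 0.11.2 were used with hg38. No source used here names the annotation, strand option, filters or read layout. A stranded library counted with the opposite setting assigns reads to the gene on the other strand.

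CPM per 1000000 used TMM effective library sizes (edgeR 4.0.16, R 4.3.3). Each gene with 10 or more counts per library was fitted in edgeR by a Poisson model holding 1 common level; its deviance gave a chi-square p, Benjamini-Hochberg adjusted over all genes tested, and the call threshold was 0.05. The scripts were tested on simulated counts. Log2 ratios used a prior of 0.5 CPM. Names were matched to GENCODE 29, 23900 by name and 720 through another symbol (93.0%), and exons were merged per gene. Coding sequences were aligned globally with Biopython. Python 3.11.15, scipy 1.17.1 and matplotlib 3.10.9 were used. DESeq2 1.42.0 served as an alternative.

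The members and lists were chosen with earlier results of these data known. The genes named are the members, their opposite-strand and listed neighbours, the 3 highest and up to 3 uncounted genes of each list, and the 5 genes most like SYNC; others are marked where they appear, and 1 gene that the rule names is not reported here.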

Additional observations from a re-analysis of the deposited data

How the results depend on the processing

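Of 55 alternatives tried for the levels, ratios and counts, 41 were classed as close to the reported value, and no ratio turned its direction. For levels and ratios, close meant within the SD of the 3 libraries. Counts of genes and shares of pairs have no such SD, so the tally does not show that they were stable. The 41 include 786 of 2723 varying genes without replicate 1 and 1093 of 3186 without replicate 3, against 1175 of 2564. Leaving TSIX, the most counted name, out of the library size put SYNC at 7079 CPM and RBBP4 at 175 CPM. The log2 ratio of SYNC over RBBP4 was 6.78 per kilobase of merged exon, 7.46 per kilobase of exon not shared and 6.56 per kilobase of the longest coding transcript, and that of RBBP4 over RBBP7 was 2.06 on this last scale. Genes varying between replicates numbered 2914 of 14482 without the count filter, 1807 by DESeq2 dispersions and, leaving out 1 library at a time, 263 of 2784 (without replicate 2) to 1093 of 3186 (without replicate 3). The share of lopsided opposite-strand pairs was 57.0% at 5-fold, 55.9% of 429 pairs with 100 or more counts, and 45.4% to 47.6% leaving out 1 library at a time. The causes were not tested. For single genes 5 calls were lost, those of SYNC without replicate 1 and of TXLNG given in the text. The alternatives per longest coding transcript, and those for the partner lists, were added after seeing the data. RBBP7 rested on 1 to 7 counts per library, which limits its precision. No paired analysis was possible because all libraries belong to 1 group.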

Other observations

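Other genes whose symbols begin with RBBP, named for binding the retinoblastoma protein rather than for kinship with RBBP4, were sparsely counted too. RBBP5, a subunit of histone methyltransferase complexes, had 15, 2 and 5 counts in replicates 1, 2 and 3, RBBP9 10, 5 and 3, RBBP6 7, 2 and 2 and RBBP8, a DNA end resection factor gene, 3, 0 and 0, while RBBP8NL had none. RBBP4 had more counts than each of them in every library. These genes were chosen after their values were seen.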
